A study of Mus musculus with 15 samples.

Results

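Pericytes and vascular smooth muscle cells, together the mural cells, were examined through 7 marker genes: Pdgfrb, Rgs5, Cspg4, Abcc9, Acta2, Des and Anpep. They were taken by symbol from the 46679 genes of the deposited tables, through the gene identifiers of GENCODE. All 7 were found, and 5 of them (Pdgfrb, Rgs5, Cspg4, Abcc9 and Acta2) were among the 17481 genes that passed the filter on low counts and could be tested. Des and Anpep did not pass and are given as counts only. Mural cells wrap the endothelial tube of small vessels. In brain, endothelial PDGF-B signals to the receptor PDGFRβ on pericytes and keeps them at the vessel, where they take part in blood flow control and in the blood-brain barrier. In gliomas the vessels are often abnormal and their pericyte cover varies.

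The 15 samples were RNA-seq libraries of naïve brain and of 4 syngeneic glioma models at end stage, each from 3 C57BL/6 mice. The lines CT2A and GL261 derive from chemically induced tumors, and 005 and Mut3 from tumors of genetically engineered mice. Mice of 6 to 8 weeks were implanted in the right hemisphere with 500000 cells for Mut3 and 100000 for each of the other lines, all of which carried GFP and firefly luciferase, and were perfused with PBS at the end point before the tissue was taken. Each model is 1 cell line, so the 3 mice of a group share its cells, and naïve brain had no implantation, so the needle track and the tumor cannot be told apart as sources of a difference. In these bulk samples, fewer mural cells and less RNA per mural cell cannot be told apart either.

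Total counts were lowest in naïve brain (3105119 to 5161132) and reached 13130158 in 005. A floor of 3 counts, a chosen setting below which single counts still occur, corresponded to 0.214 to 0.811 CPM and covers counting error only. CPM are counts scaled to library totals after TMM scaling of the library size in edgeR. The sum of 6 neuron genes was 3380 to 5428 CPM in naïve brain and at most 1525 CPM in the tumors, except for 005 replicate 3 at 2973 CPM. That library also had 17.8% mitochondrial counts, against at most 11.3% in the other tumors and 14.97% to 24.0% in naïve brain. It stood apart from the other 005 samples, and members and list counts of 005 are therefore also given without it. Naïve replicate 2 differed from naïve replicates 1 and 3 too. Its sum of 4 oligodendrocyte genes was 3663 CPM against 1397 and 1439 CPM, and its TMM factor was 1.30 against 0.952 and 0.928. It remained in the reference for all values unless its omission is stated.

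The promoters of 3 genes are shown because their genes carried the differences described below: Cspg4, the member with the largest change, and the neighbors Abcc9 and Kcnj8, which encode the 2 partners of 1 potassium channel and were both higher in 005. Of the 7 members, 6 matched the RefSeq promoter table (GRCm38.p6), which holds 250 bases before and 50 bases after each gene's start. The Cspg4 window was chr9:56864854-56865153 on the plus strand, that of Abcc9 chr6:142702225-142702524 on the minus strand, and that of Kcnj8 chr6:142571565-142571864 on the minus strand. Capitals mark TGGGAA, the core that the Notch effector RBPJ recognizes, searched on both strands.
Cspg4: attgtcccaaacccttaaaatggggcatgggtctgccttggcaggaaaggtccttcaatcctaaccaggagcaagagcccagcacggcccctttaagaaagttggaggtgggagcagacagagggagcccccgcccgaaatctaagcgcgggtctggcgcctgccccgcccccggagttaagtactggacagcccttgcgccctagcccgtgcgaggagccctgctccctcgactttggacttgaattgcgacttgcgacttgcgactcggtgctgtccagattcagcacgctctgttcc
Abcc9: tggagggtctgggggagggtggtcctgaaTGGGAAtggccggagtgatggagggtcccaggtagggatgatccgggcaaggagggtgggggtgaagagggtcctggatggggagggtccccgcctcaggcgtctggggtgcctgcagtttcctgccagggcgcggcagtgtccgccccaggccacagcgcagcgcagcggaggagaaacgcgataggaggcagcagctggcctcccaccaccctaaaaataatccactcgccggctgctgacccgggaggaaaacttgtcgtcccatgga
Kcnj8: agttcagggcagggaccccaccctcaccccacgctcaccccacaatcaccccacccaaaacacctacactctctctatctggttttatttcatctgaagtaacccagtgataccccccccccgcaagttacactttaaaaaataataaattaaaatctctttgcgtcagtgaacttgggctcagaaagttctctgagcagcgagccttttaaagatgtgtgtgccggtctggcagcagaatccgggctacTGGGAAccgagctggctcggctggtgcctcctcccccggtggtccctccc
TGGGAA occurred in 25.6% of all 32851 promoters of this length, so its presence in the Abcc9 and Kcnj8 windows is a description and not a site. The Cspg4 window did not hold these letters. The CArG box (the serum response element core of contractile genes, present in 1.63% of promoters), TATAAA (13.6%) and CCAAT (37.4%) were also searched, and none of them occurred in these 3 windows. GC content was 60.0% in the Cspg4 window, 65.7% in that of Abcc9 and 53.3% in that of Kcnj8, against a median of 52.7% over all promoters. The Kcnj8 gene (chr6:142564837-142571614) lies 16247 bases from Abcc9 (chr6:142587862-142702315), on the same strand.

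Compared with naïve brain, 2 of the 5 tested genes rose in CT2A (Pdgfrb and Cspg4), none in GL261, 1 in 005 (Abcc9) and 1 in Mut3 (Cspg4). None of the 5 fell in any tumor. Differential expression (DE) meant a log2 fold change of at least 1 in size together with a p under 0.05 from edgeR's quasi-likelihood test after Benjamini-Hochberg adjustment over all tested genes. Among all tested genes, 19.0% rose and 20.2% fell in CT2A, 14.6% rose and 7.77% fell in GL261, 11.6% rose and 1.05% fell in 005, and 17.9% rose and 19.8% fell in Mut3. Without 005 replicate 3, 17.6% rose and 18.1% fell in 005, and the number of DE genes in 005 was 6535 instead of 2217, whereas it was 1006 without 005 replicate 2. The number of DE members in 005 was 1 without replicate 3 and 0 without replicate 2. Among all tested genes in GL261, 3913 were DE, 5535 without 005 replicate 3 and 1988 without GL261 replicate 1. The counts of 2, 0, 1 and 1 of 5 genes stand against these shares, and with 5 genes they do not set the members apart from the rest. For GL261, 1 member (Abcc9) was at an unadjusted p under 0.05 in edgeR, and in DESeq2 the count was 0 both for DE members and at an unadjusted p under 0.05. The median log2 fold change of the 5 genes was 0.86 in 005, 0.69 in GL261, 0.48 in Mut3 and 0.07 in CT2A, where that of all tested genes was 0.01, −0.08, 0.11 and −0.04. The plot of the change in each tumor shows that the genes did not move as a block.

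**Figure D1:**
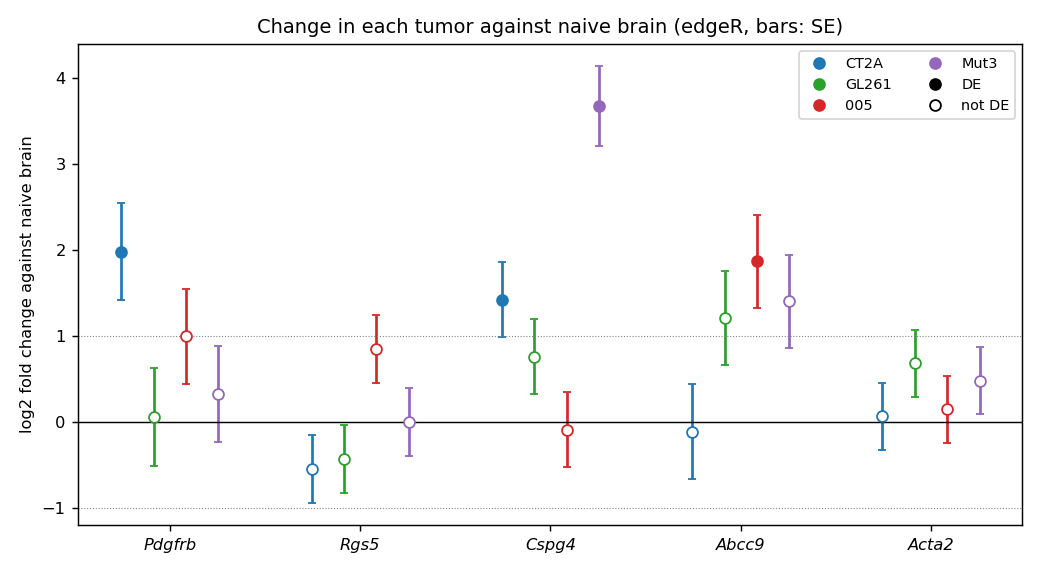
Log2 fold change of the 5 tested genes (horizontal axis) in each tumor against naïve brain, with the standard error from edgeR as bars (3 mice per group), filled points for DE genes and dotted lines at a log2 fold change of 1 in each direction. The 4 filled points are Pdgfrb and Cspg4 in CT2A, Abcc9 in 005 and Cspg4 in Mut3, which is the highest at 3.67.

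Pdgfrb (chromosome 18) encodes PDGFRβ, the receptor that defines pericytes and is also found on fibroblasts. In naïve brain its level was 2.24, 4.48 and 1.35 CPM. In CT2A tumors it was 5.98, 13.97 and 12.14 CPM. In TPM these groups overlapped (0.350 to 0.662 in CT2A, 0.109 to 0.606 in naïve brain), while in CPM all CT2A samples were above all naïve samples. For this and later statements that groups did not overlap, the share of all tested genes that also did not was not counted. They describe the samples only. Pdgfrb was 3.95-fold higher in CT2A than in naïve brain (log2 fold change 1.98 ± 0.56, SE, adjusted p = 0.0129, edgeR). The level was 1.24, 4.20 and 2.91 CPM in GL261, 5.36, 7.48 and 3.42 CPM in 005, and 3.47, 4.15 and 2.55 CPM in Mut3. These 3 tumors overlapped with naïve brain. The log2 fold change was 0.06 ± 0.57 in GL261, 1.00 ± 0.55 in 005 and 0.33 ± 0.56 in Mut3, and none passed (adjusted p = 0.948, 0.224 and 0.666 in edgeR). Pdgfrb in 005 was 1.17 without 005 replicate 3 (adjusted p = 0.127). Between the tumors, Pdgfrb was 3.79-fold higher in CT2A than in GL261 (adjusted p = 0.0451), in a comparison in which 7.77% of all tested genes were DE. The CT2A samples were also all above the Mut3 samples, but that difference did not pass (log2 1.66 ± 0.54, adjusted p = 0.0561). The order of the mean levels was CT2A, 005, Mut3, GL261 and naïve brain, and no neighbors in it differed at the threshold.

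The rise of Pdgfrb in CT2A was called when each of the 15 libraries was left out in turn. Its log2 fold change ranged from 1.68 without naïve replicate 3 to 2.75 without naïve replicate 2. The difference from GL261 was less firm: it lost its call without any 1 of 10 libraries, with an adjusted p of up to 0.172 without CT2A replicate 2. On the scale of log2(TPM + 1), the CT2A rise of Pdgfrb was 0.24 with an adjusted p of 0.14 in limma and was not called. On that scale a gene below 1 TPM can move little. The log2 ratio of TPM to CPM was also lower in CT2A than in naïve brain, by 0.981. The part of each in the lost call was not tested. Pdgfrb averaged 0.308 TPM in naïve brain and 0.530 TPM in CT2A. The summed level of 8 fibroblast genes, another cell type that carries this receptor, was 53.3 to 154 CPM in naïve brain, 423 to 640 CPM in CT2A, 228 to 233 CPM in GL261, 71.2 to 137 CPM in 005 and 61.3 to 184 CPM in Mut3. The largest part of the sum in CT2A and GL261 was 1 gene, the collagen gene Col3a1. It averaged 477 CPM in CT2A, 166 CPM in GL261 and 5.76 CPM in naïve brain. The median log2 fold change of the 8 genes against naïve brain was 0.66 in CT2A and −0.55 in GL261. The part of fibroblasts in the Pdgfrb values was not tested. Of the 8, 2 rose and 1 fell in CT2A, and 1 was called in all without naïve replicate 1. Col3a1, the collagen III chain, led that list in CT2A with a log2 fold change of 6.37 ± 0.78 (adjusted p = 0.000183, edgeR).

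Around the receptor, the other PDGF genes moved in different directions. Of 5 PDGF genes, the 4 ligands and Pdgfra, the alpha receptor of oligodendrocyte progenitors and fibroblasts, 2 rose and 1 fell in CT2A, 2 fell in GL261 and 3 fell in Mut3. In 005 none passed in edgeR or DESeq2, with 1 at an unadjusted p under 0.05 in edgeR, and 1 (Pdgfra, log2 −1.11) fell without 005 replicate 3. Pdgfb, the ligand that recruits pericytes, was at 10.4, 16.9 and 5.14 CPM in naïve brain. It was 3.42, 3.88 and 2.84 CPM in CT2A and 2.80, 2.39 and 2.55 CPM in Mut3, below every naïve sample. Pdgfb fell in CT2A (log2 −1.68 ± 0.48, adjusted p = 0.0133), GL261 (−1.45 ± 0.48, 0.0406) and Mut3 (−2.06 ± 0.48, 0.00423), and in 005 its value was −0.27 ± 0.46 (adjusted p = 0.704, edgeR). The fall of Pdgfb in Mut3 was called in all 15 omissions of a library. In CT2A it was lost without naïve replicate 2 or CT2A replicate 3 (adjusted p up to 0.125), and in GL261 it was lost in 10 of 15 (up to 0.242). The GL261 count was 0 without naïve replicate 1. Pdgfc, which signals mainly through the alpha receptor, was 26.5, 18.6 and 14.5 CPM in CT2A against 3.06, 4.98 and 3.52 CPM in naïve brain, a rise of 5.15-fold. It was at most 1.13 CPM in Mut3, where it fell 5.63-fold. Pdgfa fell in Mut3 (log2 −1.38, called in all 15 omissions) and in GL261 (log2 −1.05, lost in 6 of 15), Pdgfra rose in CT2A (log2 1.52 ± 0.36), and Pdgfd passed in no tumor.

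Cspg4 (chr9:56865033-56899870) encodes NG2, a membrane proteoglycan of pericytes that is also the marker of oligodendrocyte progenitors. It gave the largest difference among the members. In naïve brain it was 5.30, 12.21 and 5.95 CPM. In Mut3 it was 109.30, 68.95 and 120.84 CPM. The lowest Mut3 sample was above every sample of the other 4 groups. Cspg4 was 12.8-fold higher in Mut3 than in naïve brain (log2 3.67 ± 0.47, adjusted p = 0.00019, edgeR). It was also 4.76-fold higher than in CT2A (adjusted p = 0.00369), 7.53-fold higher than in GL261 (adjusted p = 0.00113) and 13.6-fold higher than in 005 (adjusted p = 0.000312). In these comparisons 12.8%, 17.2% and 19.8% of all tested genes were DE, and Cspg4 was the only member called in each of them. All 4 Mut3 differences were called under each of the 23 alternatives run, log2(TPM + 1) included. The alternative with no threshold on the fold change could not lose a call.

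In CT2A, Cspg4 was 13.31, 19.25 and 30.23 CPM, above every naïve sample, and the rise was 2.68-fold (log2 1.42 ± 0.44, adjusted p = 0.0186, edgeR). In TPM, CT2A (0.661 to 1.21) overlapped with naïve brain (0.414 to 1.37). In GL261 Cspg4 was 14.30, 7.76 and 17.59 CPM and in 005 5.25, 9.18 and 7.62 CPM. Both overlapped with naïve brain and neither passed (log2 0.76 ± 0.43, adjusted p = 0.2, and −0.09 ± 0.43, adjusted p = 0.906). Cspg4 in 005 was −0.19 without 005 replicate 3 (adjusted p = 0.801). The CT2A rise of Cspg4 lost its call without naïve replicate 1 (adjusted p = 0.0754), naïve replicate 3 (0.0637) or CT2A replicate 3 (0.0936). With library size in place of TMM it was 1.13 (adjusted p = 0.0739). CT2A samples were all above 005 samples, without passing (log2 1.51 ± 0.43, adjusted p = 0.0612). The order of the means was Mut3, CT2A, GL261, naïve brain and 005, of which only Mut3 and its neighbor CT2A differed at the threshold. Mut3 was the group in which Cspg4 had the second highest mean TPM of the 7 genes (4.79 ± 1.24 TPM, SD, n = 3), after Acta2 (7.12 ± 2.74).

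Genes of oligodendrocyte progenitors, the other cell type that carries NG2, mostly rose in Mut3 and mostly fell in CT2A, while Cspg4 rose in both. Of 8 oligodendrocyte progenitor genes, 7 were tested and 5 rose in Mut3, none fell, with a median log2 fold change of 2.97. The 5 were Gpr17, a receptor of committed progenitors (log2 4.06 ± 0.57), Neu4 (3.99 ± 0.88), the lineage factors Olig2 (3.96 ± 0.51) and Olig1 (2.32 ± 0.66), and Tnr, an extracellular matrix protein (2.97 ± 0.69), named after their values were seen. The summed level of the list was 323 to 882 CPM in Mut3 and 51.9 to 128 CPM in naïve brain. Pdgfra, the defining receptor of these cells, was 40.1, 18.9 and 38.3 CPM in Mut3 against 16.9, 21.7 and 13.8 CPM in naïve brain and did not pass (log2 0.89 ± 0.35, adjusted p = 0.0563, edgeR). In CT2A, where Cspg4 also rose, 5 of the 7 fell and 1 (Pdgfra) rose, and the sum was 62.9 to 75.8 CPM. The largest part of the sum in CT2A was Pdgfra, which averaged 50.1 CPM there and 17.5 CPM in naïve brain. That number of 6 called genes was 2 without naïve replicate 2, while in Mut3 it ranged from 4 to 7 over the omissions. In GL261, 2 rose (Sox10 and Olig2), with 4 called without naïve replicate 2 and 1 without naïve replicate 1, and in 005 none passed in edgeR or DESeq2, with 1 at an unadjusted p under 0.05 in edgeR and 2 called without 005 replicate 3. The part of progenitor-like or tumor cells in the Cspg4 differences was not tested. Among the other pericyte genes in Mut3, Notch3, a receptor of mural cells, rose (log2 1.77 ± 0.61, adjusted p = 0.0317), as did Mcam (1.43), and Vtn fell (−1.25 ± 0.40, adjusted p = 0.0222), but each of these 3 calls was lost in 3 of the 15 omissions, and all 3 without naïve replicate 3.

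**Figure D2:**
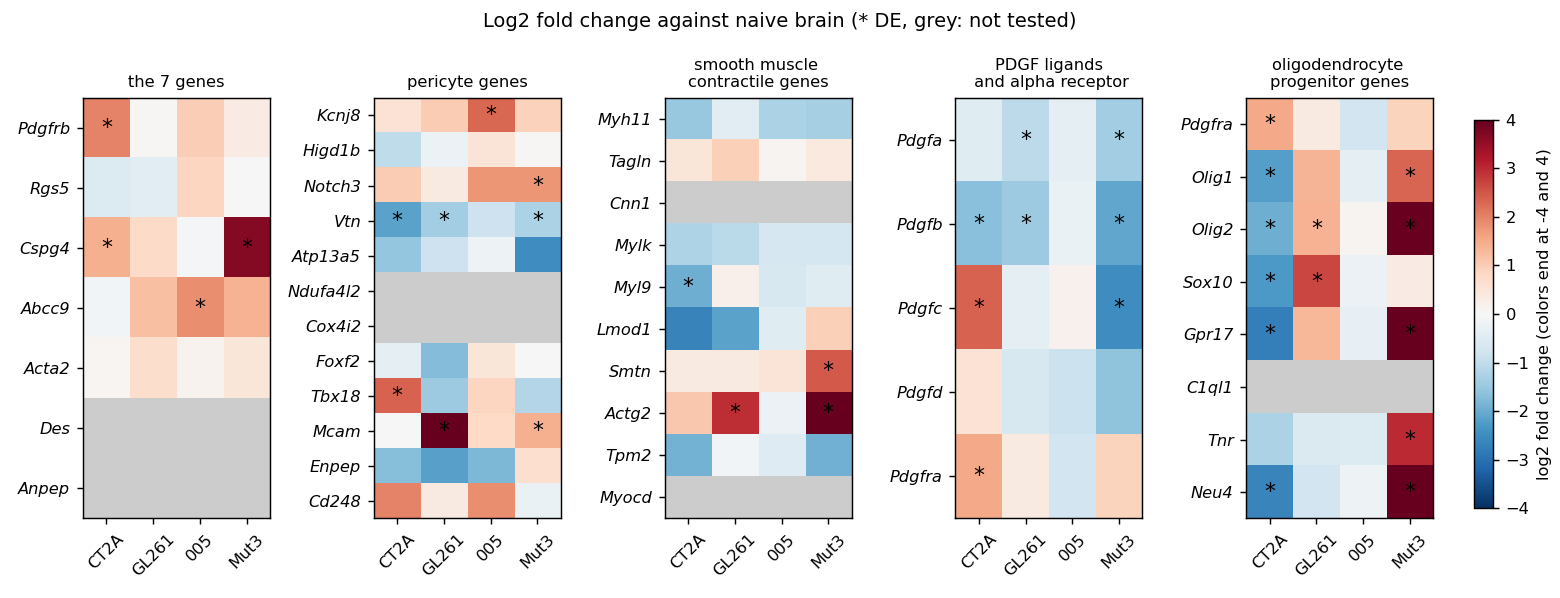
Log2 fold change against naïve brain for the 7 genes, the other pericyte genes, smooth muscle genes, PDGF genes and oligodendrocyte progenitor genes (rows) in each tumor (columns), with red for higher, blue for lower, grey for not tested and a star for DE. In the Mut3 column Cspg4 and 5 of the 7 tested progenitor genes carry a star, and in the CT2A column 5 progenitor genes are lower.

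Rgs5 encodes a regulator of G protein signaling that is abundant in brain pericytes and has been tied to abnormal tumor vessels. Among the groups its mean was highest in 005 and lowest in CT2A. Naïve brain gave 38.35, 49.57 and 40.29 CPM, CT2A 37.00, 27.79 and 23.25 CPM, and GL261 30.47, 30.22 and 34.70 CPM. All CT2A and all GL261 samples were below all naïve samples. In 005 it was 50.16, 122.42 and 59.52 CPM, with every sample above naïve brain, and in Mut3 30.09, 27.93 and 70.27 CPM, with 1 sample above and 2 below. In TPM, 005 (1.71 to 4.58) overlapped with naïve brain (2.09 to 4.16), and the high Mut3 sample (2.51) lay within the naïve range. None of the 4 log2 differences from naïve brain passed in edgeR. They were 0.86 ± 0.40 in 005 (adjusted p = 0.156), 0.00 ± 0.39 in Mut3 (0.999), −0.43 ± 0.40 in GL261 (0.434) and −0.54 ± 0.40 in CT2A (0.283). Over all 5 groups, the test of any difference passed for Rgs5 (adjusted p = 0.0373), as it did for Cspg4 (4.85e-05), Abcc9 (0.0189) and Pdgfrb (0.0192) and for 52.1% of all tested genes, but not for Acta2 (0.405).

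Between tumors, Rgs5 in 005 was 2.63-fold higher than in CT2A (log2 for CT2A against 005 −1.40 ± 0.40, adjusted p = 0.0623) and 2.43-fold higher than in GL261 (log2 for GL261 against 005 −1.28 ± 0.40, adjusted p = 0.12), and neither passed. The samples did not overlap in either comparison. DESeq2 called the first (adjusted p = 0.0212). Replicate 2 held the high value in 005, and without it the log2 fold change against naïve brain was 0.37, while without 005 replicate 3, the library that stood apart, it was 0.94 (adjusted p = 0.094). The 1 high Mut3 sample had a similar effect: without Mut3 replicate 3 the value against naïve brain was −0.57 (adjusted p = 0.262). No member was DE between GL261 and 005 in edgeR or DESeq2, with 1 at an unadjusted p under 0.05 in each, where 2.62% of all tested genes were.

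Abcc9 encodes SUR2, the regulatory subunit of the ATP-sensitive potassium channel of mural cells, and Kcnj8 encodes its pore, Kir6.1. In naïve brain Abcc9 was at 2.45, 1.00 and 1.62 CPM, which rest on 4 to 12 counts in a library. CT2A stayed in that range, at 1.34, 1.86 and 1.55 CPM. GL261 was at 5.18, 3.88 and 2.91 CPM, 005 at 8.14, 8.09 and 2.63 CPM and Mut3 at 6.15, 3.15 and 4.31 CPM. In CPM every sample of these 3 tumors was above every naïve and every CT2A sample. In TPM, GL261 (0.100 to 0.125) and Mut3 (0.0914 to 0.176) overlapped with naïve brain (0.0662 to 0.120). The 005 samples (at least 0.122 TPM) did not, and all 3 tumors stayed above CT2A (at most 0.0461 TPM). Abcc9 passed in 005 (3.65-fold, log2 1.87 ± 0.54, adjusted p = 0.0359), but not in GL261 (log2 1.21 ± 0.54, adjusted p = 0.111) or in Mut3 (1.40 ± 0.54, adjusted p = 0.0504, edgeR). It was also 3.93-fold lower in CT2A than in 005 (adjusted p = 0.0499), in a comparison in which 4.11% of all tested genes were DE.

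The calls on Abcc9 were near the threshold. Against naïve brain, the 005 rise of Abcc9 was lost without any 1 of naïve replicates 1, 2 and 3, GL261 replicates 2 and 3 and 005 replicates 1 and 2, with adjusted p from 0.0503 to 0.141, while the log2 fold change stayed between 1.64 and 2.26 over all 15 omissions. Without 005 replicate 3, the lowest 005 sample and the library that stood apart, it was 2.17 (adjusted p = 0.00399). The difference between CT2A and 005 was lost in 14 of the 15 omissions, with an adjusted p of up to 0.179 and a log2 value from −2.32 to −1.74. The Mut3 rise of Abcc9 was called without naïve replicate 1 (0.0492), 005 replicate 3 (0.0259) or Mut3 replicate 2 (0.0491), and with library size in place of TMM (0.0391).

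Kcnj8, at 1.02, 1.49 and 1.08 CPM in naïve brain, was 6.80, 7.61 and 3.49 CPM in 005. All 3 samples of 005 were above naïve brain, a rise of 4.92-fold (log2 2.30 ± 0.65, adjusted p = 0.0307, edgeR). In CT2A (log2 0.59 ± 0.65), GL261 (1.02 ± 0.65) and Mut3 (0.92 ± 0.64) it did not pass. The naïve value rests on 4 to 6 counts in a library. The call on Kcnj8 was lost without any 1 of naïve replicates 1, 2 and 3 and 005 replicates 1 and 2 (adjusted p up to 0.115). Without 005 replicate 3, Kcnj8 was 2.50 (adjusted p = 0.00978). Over the 15 samples, log2 CPM of Abcc9 and Kcnj8 had a Pearson correlation of 0.57, and Rgs5 and Kcnj8 of 0.64. Both of these describe samples that share groups and libraries. Among the 5 members themselves, the 10 pairwise correlations lay between −0.26 (Pdgfrb and Acta2) and 0.37 (Rgs5 and Abcc9).

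**Figure D3:**
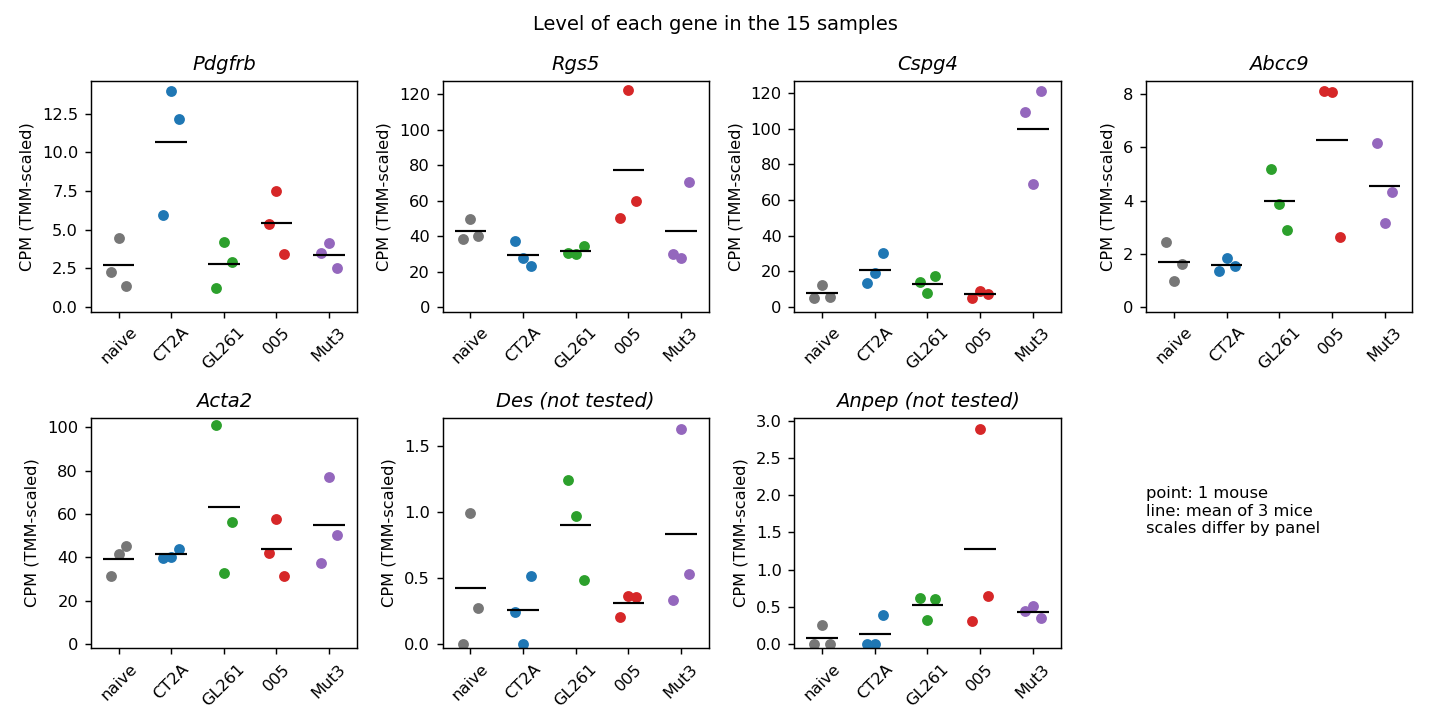
CPM (vertical axis, TMM-scaled, starting near 0 and differing by panel) of each of the 7 genes in each mouse (points) of the 5 groups, with the mean of 3 mice as a line. Cspg4 in Mut3 stands above all other samples, Abcc9 is higher in GL261, 005 and Mut3 than in naïve brain and CT2A, and Acta2 overlaps between all groups.

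Acta2 (chr19:34241090-34255590) encodes smooth muscle actin, the contractile actin of arterial smooth muscle and of myofibroblasts. It had the highest mean TPM of the 7 genes in every group, from 4.75 ± 0.47 TPM in CT2A to 9.12 ± 2.94 in naïve brain (SD, n = 3). In CPM it was 31.42, 41.35 and 45.16 in naïve brain, 39.69, 40.21 and 43.92 in CT2A, 100.94, 32.81 and 56.41 in GL261, 42.02, 57.71 and 31.26 in 005, and 37.48, 77.13 and 50.40 in Mut3. All 10 pairs of groups overlapped, as they did for 10.2% of all tested genes. The log2 fold change against naïve brain was 0.69 ± 0.39 in GL261, 0.48 ± 0.39 in Mut3, 0.15 ± 0.39 in 005 and 0.07 ± 0.39 in CT2A, and none passed (lowest adjusted p = 0.195, edgeR). Acta2 in 005 was 0.27 without 005 replicate 3 (adjusted p = 0.626). On log2(TPM + 1), where all genes are shifted down in the tumors as described below, each of these 4 values was negative. Relative to the median of all tested genes on that scale, Acta2 was at 0.14 in GL261, −0.06 in Mut3, −0.19 in 005 and −0.40 in CT2A.

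Acta2 shares long stretches of coding sequence with the other muscle actins Actg2 and Acta1, and how reads were divided between them is uncertain. Actg2, the enteric smooth muscle actin, was 24.6, 27.1 and 13.5 CPM in Mut3 against 1.22, 2.24 and 0.541 CPM in naïve brain, a rise of 16.0-fold (adjusted p = 0.00101), and it rose 7.68-fold in GL261 (adjusted p = 0.0102, edgeR), a call lost without GL261 replicate 1 (0.0501). GL261 replicate 1 was the highest GL261 library for both actins (Acta2 100.94 CPM, Actg2 22.0 CPM). Of the 10 smooth muscle contractile genes, 8 were tested. None rose and 1 (Myl9, a myosin light chain, log2 −1.95 ± 0.46) fell in CT2A, 1 (Actg2) rose in GL261, 2 (Actg2 and Smtn) rose in Mut3, and in 005 0 passed in edgeR or DESeq2, with 0 at an unadjusted p under 0.05 in edgeR and 0 called without 005 replicate 3. The GL261 number was 0 without GL261 replicate 1 and 2 without naïve replicate 2, and that of CT2A 2 without naïve replicate 1. Myh11, the smooth muscle myosin that defines these cells, passed in no tumor. The median log2 fold change of the list was 0.04 in GL261, −0.06 in Mut3, −0.51 in 005 and −1.37 in CT2A.

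Of the 12 further pericyte genes, 10 were tested. In CT2A 1 rose (Tbx18, a mural transcription factor, log2 2.36 ± 0.68) and 1 fell (Vtn), in GL261 1 rose (Mcam) and 1 fell (Vtn), in 005 1 rose (Kcnj8), and in Mut3 2 rose and 1 fell. The number called in Mut3 was 0 without naïve replicate 3, and that in 005 was 0 without naïve replicate 1 and 2 without 005 replicate 3. In CT2A and GL261 it was 1 without naïve replicate 1. Tbx18 in CT2A was lost there (adjusted p = 0.058). Their median log2 fold change was 0.66 in 005, 0.03 in Mut3, −0.19 in CT2A and −0.54 in GL261. Vtn, vitronectin, which brain pericytes secrete, fell in 3 of the 4 tumors with all libraries in the fit. Its level was 102, 62.5 and 141 CPM in naïve brain and 26.6, 20.03 and 22.1 CPM in CT2A, a 4.44-fold fall (adjusted p = 0.00188, edgeR). In 005 it was 34.5, 44.7 and 94.3 CPM (adjusted p = 0.172), the highest value being that of replicate 3. Without that library Vtn fell in 005 too (log2 −1.43 ± 0.37, adjusted p = 0.00784). In CT2A the fall of Vtn was called in all 15 omissions, in GL261 it was lost in 5 and in Mut3 in 3. Mcam, also known as CD146, rose 17.2-fold in GL261 (adjusted p = 0.000187) and is carried by endothelial and many tumor cells too. Of 10 endothelial genes, 1 rose and 1 fell in CT2A, 1 rose in GL261, 1 in 005, and 2 rose and 1 fell in Mut3. In 005 the number called was 3 without replicate 3, and in GL261 0 without naïve replicate 1 and 2 without naïve replicate 2. The 1 that rose in all 4 tumors was Emcn, endomucin (log2 1.28 to 1.77), and the 1 that fell, in CT2A and in Mut3, was Slco1a4, a transporter of the blood-brain barrier (−2.31 and −2.23). The endothelial sum was 188 to 283 CPM in naïve brain, 139 to 156 CPM in CT2A and 148 to 168 CPM in Mut3. It was 207 to 261 CPM in GL261 and 169.5 to 279 CPM in 005, which both overlapped with naïve brain. Its largest part was Pecam1, which averaged 149.5 CPM in naïve brain, 82.2 CPM in CT2A and 76.0 CPM in Mut3. The 10 genes had median log2 changes of −0.21 (CT2A), 0.07 (GL261), 0.52 (005) and −0.0001 (Mut3). The lower sum in Mut3 therefore does not describe the list as a whole. The part of the endothelial sum in the mural values was not tested.

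Des encodes desmin, an intermediate filament of muscle and mural cells, and Anpep encodes CD13, an aminopeptidase of pericytes that myeloid cells carry as well. Both were at the limit of these libraries. Des had 0 to 12.7 estimated counts in a sample, listed at 0 in naïve replicate 1 and CT2A replicate 2, and the highest level was 1.64 CPM in Mut3 replicate 2. The sum of 8 skeletal muscle genes, another source of desmin, was 72.7 CPM in that library and 10.4 and 22.0 CPM in the other Mut3 samples. It was 109.5 to 213 CPM in GL261, 41.8 to 62.7 CPM in naïve brain, 13.5 to 19.5 CPM in CT2A and 12.4 to 40.4 CPM in 005. Its part in the Des values was not tested. Anpep had 0 to 24.2 estimated counts and was at 0 in naïve replicates 1 and 3 and in CT2A replicates 1 and 2. Its highest level was 2.90 CPM in 005 replicate 2, and the other 005 samples were at 0.309 and 0.641 CPM. With no filter on low counts, none of their comparisons passed in edgeR, the nearest being Anpep in 005 against naïve brain (adjusted p = 0.132, unadjusted p = 0.0164). These tests rest on few counts. For Anpep every GL261, 005 and Mut3 sample was above every naïve sample in CPM (but not in TPM). The myeloid sum, over 8 genes, was 1786 to 11111 CPM in 005 and 253 to 277 CPM in naïve brain, and its part in the Anpep values was not tested.

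The ratio of count to TPM depends on the transcript length that the authors' quantification used for a gene. For Anpep it was 0.106 of that for Pdgfrb, whereas the longest annotated transcript of Anpep (3797 bases) is 0.7 of that of Pdgfrb (5423 bases). The ratio for Des was 0.435 of that for Pdgfrb, against 0.558 for the longest annotated transcripts. The ratios of other members also departed from their longest annotated transcripts: Rgs5 1.58 against 0.755, Abcc9 1.97 against 1.38, Cspg4 1.19 against 1.5 and Acta2 0.443 against 0.375. The yardstick Pdgfrb may thus itself not be counted at its annotated length, and these ratios give no counted length in bases. GENCODE lists 6 Anpep transcripts, the shortest of 178 bases.

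The log2 ratio of TPM to CPM was lower in the tumors than in naïve brain by 0.981 (CT2A), 0.81 (GL261), 0.598 (005) and 0.815 (Mut3), the same amount for every gene up to rounding. On log2(TPM + 1) the median of all tested genes against naïve brain was −0.38, −0.36, −0.23 and −0.27. The 10 genes with the highest mean TPM took 23.5% to 25.3% of TPM in naïve brain and 26.9% to 34.8% in the tumors. As computed, Acta2 in all 4 tumors, Rgs5 in Mut3, Cspg4 in GL261 and Pdgfrb in GL261 and Mut3 were negative on log2(TPM + 1) and positive on counts. Relative to the medians, Acta2 in GL261 (0.14), Cspg4 in GL261 (0.31) and Pdgfrb in GL261 (0.20) and Mut3 (0.16) were positive, as on counts. Pdgfrb and Cspg4 averaged 0.308 and 0.734 TPM in naïve brain. On log2(TPM + 1) such genes can move little, and subtracting a negative median raises them. Their positive values therefore do not show that the scales match. Rgs5 in Mut3 was negative relative to the median on both scales (−0.33 on log2(TPM + 1) and −0.11 on counts). Relative to the medians, a difference in sign remained for Acta2 in CT2A, 005 and Mut3, where it was called on neither scale. Abcc9 in CT2A was negative on both scales as computed (−0.11 on counts and −0.06 on log2(TPM + 1)). Relative to the medians it was −0.07 on counts and 0.32 on log2(TPM + 1). Of the 4 calls against naïve brain, Cspg4 in Mut3 was also called on log2(TPM + 1), and none of the 4 changed direction.

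**Figure D4:**
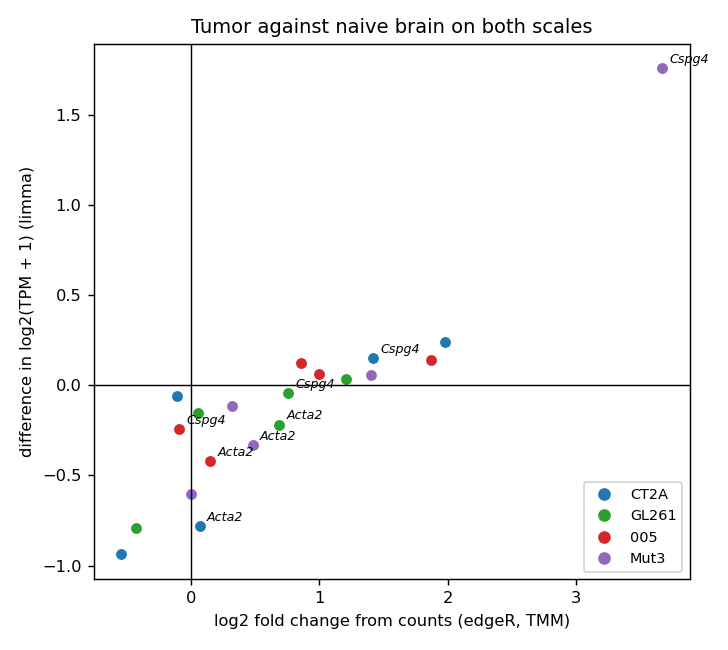
Log2 fold change of the 5 tested genes from counts (horizontal axis) against the difference in log2(TPM + 1) (vertical axis), with 1 point for each gene and tumor against naïve brain and Cspg4 and Acta2 labelled. The 4 Acta2 points lie right of 0 and below 0, where the medians of all tested genes on the vertical axis were −0.38 to −0.23, and Cspg4 in Mut3 is high on both scales.

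By Pearson correlation of log2 CPM over the 15 samples, the genes with the most similar pattern, among 8936 or 8937 other genes with a mean log2 CPM of at least 3, were Olfml2b, Gatad1 and Col4a1, a chain of the basement membrane collagen IV, for Pdgfrb (0.89, 0.88 and 0.87). They were Slc7a11, Ep300 and Lrp8 for Rgs5 (0.88, 0.83 and 0.80), and Cmc2, Rpap1 and Mfap4 for Cspg4 (0.95, 0.94 and 0.94). For Abcc9 they were Mrps16, Timm23 and Larp4 (0.94, 0.88 and 0.88), and for Acta2 H2-T23, Mknk1 and Fn1 (0.76, 0.75 and 0.74), the lowest of the 5.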

How the data were processed

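RNA from 15 samples was sequenced and, per the labels, aligned with STAR to the GENCODE mouse genome; the submitters' processing notes also name Salmon, DESeq2 1.18.1 and mm10. The authors deposited expected counts per gene, which are estimates that need not be whole and are not normalized, and TPM values scaled to gene length and library. The tables are not independent: over 4644 genes, count over TPM was a gene factor times a sample factor. Rounded counts were tested with edgeR 4.0.16 in R 4.3.3 (filterByExpr, TMM, quasi-likelihood fit of all samples with a mean per group, Benjamini-Hochberg adjustment over 17481 genes). SE is the log2 fold change over the square root of F. Correlations were computed on log2 CPM (prior count 2). Alternatives were DESeq2 1.42.0, limma 3.58.1 on log2(TPM + 1), library size, other filters, a replicate block, only the samples compared, no threshold on the fold change and each replicate left out. The steps were tested on simulated counts. The named genes were the 7 members, Kcnj8, the PDGF genes, the DE gene of largest change per list, tumor and direction, and the 3 most similar genes per member. Members and lists were chosen with earlier results of these data known. The replicates are different mice, per the series design. Positions are from GENCODE M21 (GRCm38), to which 46201 identifiers matched, and promoters from RefSeq.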

Additional observations from a re-analysis of the deposited data

Results flagged for a closer look

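Beyond the differences from naïve brain, 5 differences between tumors passed edgeR's test of the difference itself in the main fit. For Cspg4 the log2 difference was −2.25 (CT2A against Mut3), −2.91 (GL261 against Mut3) and −3.76 (005 against Mut3). For Pdgfrb it was 1.92 (CT2A against GL261), and for Abcc9 −1.98 (CT2A against 005). Groups of 3 samples were too small for a test of single outlying samples.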

How the results depend on the processing

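Under 23 alternatives, the 4 Cspg4 differences of Mut3 kept their call. The rise of Pdgfrb in CT2A kept it in 21 of 22, that of Cspg4 in CT2A in 18 of 23, that of Abcc9 in 005 in 12 of 22, Pdgfrb between CT2A and GL261 in 9 of 22, and Abcc9 between CT2A and 005 in 4 of 22. These counts include the alternative with no threshold on the fold change, which reuses the main fit and cannot lose a call. Where 22 alternatives are given, the gene did not pass the filter of at least 10 counts in every sample. The cause of the lost calls was not tested. Numbers of DE members changed as follows. With DESeq2 there were 3 between CT2A and 005 and 2 between CT2A and Mut3. With library size in place of TMM there were 1 in CT2A and 2 in Mut3 against naïve brain, 0 between CT2A and GL261 and 2 between CT2A and Mut3. With no filter there were 0 in 005, 0 between CT2A and GL261 and 0 between CT2A and 005. With at least 10 counts in every sample, which leaves fewer genes, there were 1 in CT2A, 0 in 005, 0 between CT2A and GL261, 2 between CT2A and 005 and 2 over the 5 groups. With log2(TPM + 1) there were 0 in CT2A, 0 in 005, 0 between CT2A and GL261, 0 between CT2A and 005 and 2 over the 5 groups. With only the samples compared there were 0 in 005, 0 between CT2A and 005 and 3 between CT2A and Mut3. With each library left out in turn, the numbers ranged from 1 to 2 in CT2A, 0 to 1 in 005, 1 to 2 in Mut3, 0 to 1 between CT2A and GL261, 0 to 1 between CT2A and 005, 1 to 3 between CT2A and Mut3, 1 to 2 between 005 and Mut3 and 2 to 4 over the 5 groups.

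Same-numbered samples come from different mice, their correlations ran from −0.33 to 0.26, and 3 of 15 samples matched their own number best, so the numbers do not pair them. With the replicate number as a block there were 0 DE members between CT2A and 005 and 2 between CT2A and Mut3, and Rgs5 in Mut3 was −0.011.

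Only values that were not called reversed. With library size, Acta2 in CT2A was −0.13, Pdgfrb in GL261 −0.068 and Rgs5 in Mut3 −0.070. With at least 10 counts Rgs5 in Mut3 was −0.026, and with only the samples compared −0.012. On log2(TPM + 1), Acta2 was −0.33 in Mut3, −0.42 in 005, −0.22 in GL261 and −0.78 in CT2A, Pdgfrb −0.15 in GL261 and −0.11 in Mut3, Cspg4 −0.044 in GL261 and Rgs5 −0.61 in Mut3. The TPM values include the shift common to all genes. With libraries left out, Abcc9 in CT2A ranged from −0.17 to 0.28, Acta2 in 005 ranged from −0.094 to 0.31, Acta2 in CT2A ranged from −0.060 to 0.31, Cspg4 in 005 ranged from −0.30 to 0.48, Pdgfrb in GL261 ranged from −0.34 to 0.77, Rgs5 in Mut3 ranged from −0.57 to 0.31. Depth limits Des, Anpep and the low naïve levels of Pdgfrb, Abcc9, Kcnj8 and Actg2.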

Other observations

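Lists of other cell types changed between the same groups as follows, each against naïve brain in edgeR. Of 8 myeloid genes, 6 rose in CT2A (3 without naïve replicate 1), 7 in GL261 and 7 in 005, and none fell there, whereas in Mut3 none rose and 2 fell (1 without naïve replicate 2). Itgax, an integrin of dendritic cells and macrophages, led in 005 (30.3-fold, adjusted p = 0.00199) and Cd14, a receptor for bacterial lipopolysaccharide, in GL261 (24.0-fold, adjusted p = 0.00012). All 6 neuron genes fell in CT2A and in Mut3, in Mut3 in every omission of a library and in CT2A with 1 left without CT2A replicate 2, led by the synaptic vesicle protein gene Syt1 (12.2-fold and 59.8-fold lower). Of 5 astrocyte genes, 2 fell in CT2A (0 without naïve replicate 2) and 3 in Mut3, with Gfap, the reactive astrocyte filament, higher in GL261 and Mut3 (5.88-fold and 5.92-fold). Of 4 oligodendrocyte genes, 2 fell in CT2A (0 without naïve replicate 2 and 4 without 005 replicate 3) and 3 in Mut3 (1 without naïve replicate 2). Of the 8 fibroblast genes, 2 rose and 1 fell in GL261, 2 rose in 005, and 1 rose and 1 fell in Mut3, and Col3a1 was among those that rose in every tumor, though its call in 005 was lost in 9 of 15 omissions. The number of fibroblast genes called in 005 was 0 without naïve replicate 1 and 3 without 005 replicate 3, and it was 1 in GL261 without naïve replicate 2 and 1 in Mut3 without naïve replicate 1. Of 8 skeletal muscle genes, 6 were tested. In CT2A and in Mut3 1 rose and 1 fell, with Acta1 the one that fell in both, and in GL261 2 rose, with Tnnt3 at 59.5-fold. The number called was 1 in CT2A without naïve replicate 3, 4 in GL261 without 005 replicate 2 and 4 in Mut3 without 005 replicate 3. No gene of the neuron, astrocyte, oligodendrocyte or skeletal muscle lists passed in 005 in edgeR, with 2, 1, 0 and 1 at an unadjusted p under 0.05, and DESeq2 called 1, a neuron gene. With 005 replicate 3 left out, 6 of 6 neuron, 1 of 5 astrocyte, 4 of 4 oligodendrocyte and 1 skeletal muscle genes were called. In GL261 no neuron or oligodendrocyte gene passed in edgeR, with 5 and 1 at an unadjusted p under 0.05, and DESeq2 called 5 and 0. Without 005 replicate 3, which shares the fit, 5 neuron and 1 oligodendrocyte genes were called in GL261.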
